A study of Homo sapiens with 15 samples.

Results

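BHLHE41 and NR1D1 are the 2 genes of a 296-gene RT-qPCR panel that encode repressors of the circadian clock. They were chosen because their measured levels across all 5 groups showed a rise lying mainly between the middle and the high dose, so the values below describe that choice and carry no test. Both were found on the panel and gave a product in all 15 samples. The samples were cultures of A549, a human lung adenocarcinoma line, grown on membranes with air above and medium below. Dimethylamine vapour was given at 14.9 ppm in the low dose group (LD), at 41.1 ppm in the mid dose group (MD) and at 81.7 ppm in the high dose group (HD). The clean air control (CA) received the same flow of 3 ml/min per cm² without the amine, and the non-exposed control (NEC) no flow. Each group had 3 biological replicates made from 2 pooled wells, and exposure for 1 h with 23 h of recovery was given 3 times within 72 h. Serum was withdrawn before exposure in every group. All LD samples lay on exposure plate 1, all MD samples on plate 5 and all HD samples on plate 6, and 1 CA and 1 NEC sample stood on each of these plates too. Among the exposed samples the effects of concentration and plate cannot be told apart except through these controls.

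The molecular clock of mammalian cells is a feedback loop in which the activators CLOCK and BMAL1 bind E-box sequences and switch on their own repressors. BHLHE41, also called DEC2, is a basic helix-loop-helix protein that occupies E-boxes and dampens CLOCK and BMAL1 activity. NR1D1, also called REV-ERBα, is a nuclear receptor that binds haem, recruits the NCoR corepressor with the histone deacetylase HDAC3, and represses the BMAL1 gene. In the lung of mice, REV-ERBα has also been described as a brake on inflammatory gene expression in epithelial cells and macrophages. Both transcripts oscillate over the day in many tissues. Here every sample was collected at a single time after exposure, so a change in level and a change in the phase of a rhythm cannot be told apart.

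The start regions of both genes are shown because clock repressors are themselves controlled through E-boxes. Each stretch is the RefSeq sequence on GRCh38.p14 from 250 bases before to 50 bases after the annotated start, 5′ to 3′ on the gene's own strand. BHLHE41 lies at chr12:26124988-26125287 and NR1D1 at chr17:40100540-40100839, both on the minus strand. Capitals mark the canonical E-box CACGTG and the shorter core ACGTG on either strand, which is contained in CACGTG and is also the core of the hypoxia response element.
BHLHE41: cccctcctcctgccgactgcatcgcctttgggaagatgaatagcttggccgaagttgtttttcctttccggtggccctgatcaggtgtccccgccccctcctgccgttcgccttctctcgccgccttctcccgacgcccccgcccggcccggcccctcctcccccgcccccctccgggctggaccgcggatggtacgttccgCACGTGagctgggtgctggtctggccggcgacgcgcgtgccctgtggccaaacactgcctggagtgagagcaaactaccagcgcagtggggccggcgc
NR1D1: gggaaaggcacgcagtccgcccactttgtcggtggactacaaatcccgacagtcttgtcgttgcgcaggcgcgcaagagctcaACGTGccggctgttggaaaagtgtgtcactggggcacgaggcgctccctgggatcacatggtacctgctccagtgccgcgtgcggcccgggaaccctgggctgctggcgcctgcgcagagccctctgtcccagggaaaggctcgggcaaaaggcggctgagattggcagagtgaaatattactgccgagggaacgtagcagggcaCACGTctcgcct
The BHLHE41 window held 1 CACGTG, 48 to 43 bases before the start, and the NR1D1 window held none. Among the 35116 RefSeq start regions of the same length, 7.26% held this motif on either strand. The core ACGTG was found in both windows and in 21.4% of all windows. The loose E-box CANNTG, which includes CACGTG, had 2 matches in the BHLHE41 window and 1 in that of NR1D1, and occurred in 68.7% of windows. The nuclear receptor half-site AGGTCA, present in 13.8% of windows, and the cAMP response element TGACGTCA, present in 1.85%, had no match in either window on either strand. These matches are descriptions of letters and not of binding. On the opposite strand, RefSeq places SSPN across BHLHE41 and THRA across the end of NR1D1. The position of the qPCR amplicon on each transcript is not given in the sources used here, so product from the overlapping gene cannot be told apart if an amplicon lies in the shared part. The files list RefSeq transcript NM_030762 for the BHLHE41 assay and NM_021724 for the NR1D1 assay.

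Levels are given as the negative ΔCT, which is the mean threshold cycle (CT) of a pair of reference transcripts, from the GTPase gene GPN1 and the membrane protein gene TMEM184C, minus the CT of the gene in the same sample. A CT counts PCR cycles, so the scale is log2 and 1 unit stands for about a doubling of RNA. In such bulk samples a change in the share of cells that express a gene and a change in its RNA per cell cannot be told apart. Mean CTs of the normalisation genes ranged from 24.6 to 25.6 over the samples, with the highest in HD replicate 1, and 282 to 286 wells per sample gave a product. The study removed MD replicate 3 as an outlier from its sequencing data on the same RNA, and that sample is kept here. Of 14 epithelial markers, the panel held KRT18, a keratin gene with a mean CT of 19.3 in CA and a difference of −0.02 in HD, and CDH1 (E-cadherin), which fell by 0.87. Of 9 leukocyte markers only CD79A was present, and it rose by 1.2 in HD (limma adjusted p = 2.14e-05). Of 6 ciliated cell markers, TPPP3 fell by 1.34 (adjusted p = 5.74e-05) and CFAP53 rose by 1.73 (adjusted p = 0.0375, 2 HD samples). None of 8 fibroblast and 7 endothelial markers was on the panel. The samples were cultures of the A549 line, so these values are levels in that line. Their bearing on the results below was not tested.

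The groups other than HD overlapped in their levels of BHLHE41. In NEC its log2 level was −3.88, −4.19 and −4.58 in replicates 1 to 3. In CA it was −3.55, −4.50 and −3.89, and in LD −3.40, −3.68 and −4.53. The 9 values spanned the same range, with the lowest sample in NEC and the highest in LD. In MD the values were −3.97, −3.95 and −3.57, all inside that range. In HD the gene reached −1.94, −2.27 and −1.25, so that every HD sample lay above all 12 others. Of the 274 panel genes measured in every sample, 17.9% had their HD samples arranged in this way.

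**Figure D1:**
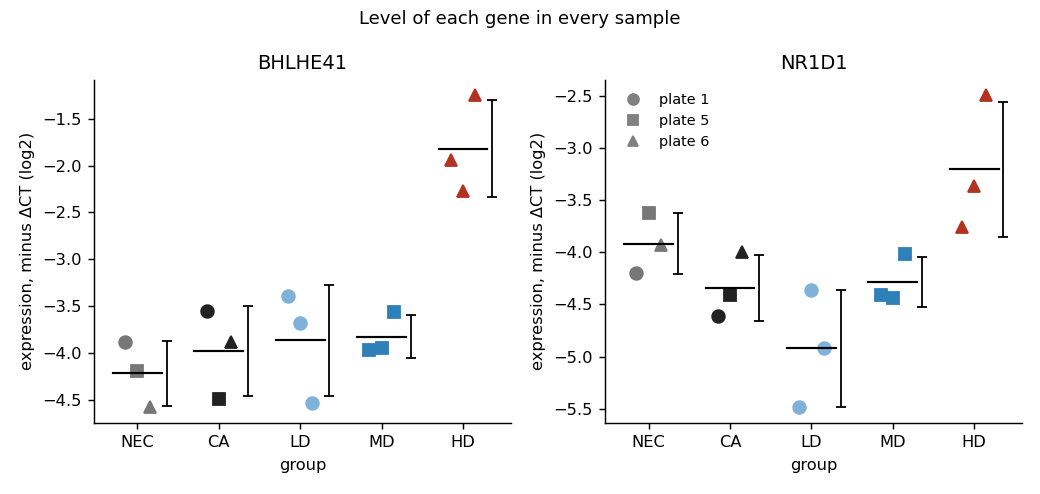
Level of BHLHE41 (left) and NR1D1 (right) as negative ΔCT on the log2 scale in each of the 15 samples, with the group on the x axis. Points are samples, their shape gives the exposure plate, the line is the group mean and the bar its SD (n = 3). The HD samples of BHLHE41, from −2.27 to −1.25, sit above all others, whereas HD replicate 1 of NR1D1 at −3.75 falls within the NEC range.

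The group means of BHLHE41 were −4.22 ± 0.35 in NEC, −3.98 ± 0.48 in CA, −3.87 ± 0.59 in LD, −3.83 ± 0.23 in MD and −1.82 ± 0.52 in HD (SD, n = 3). In this order NEC, CA, LD and MD, the neighbours differed by less than their SDs, and only HD was set apart. The mean CT of the gene was 28.9 in CA and 27.0 in HD, well before the ceiling of 35 cycles. Relative to CA, BHLHE41 was higher in HD by 2.16 ± 0.33 (SE, n = 3), which is 4.47-fold. It was the 6th highest difference of the 282 genes tested, while the median gene was higher by 0.14. The difference from CA was 0.15 ± 0.33 in MD and 0.11 ± 0.33 in LD, and NEC was lower than CA by a value within the error, at −0.24 ± 0.33. From MD to HD the gene differed by 2.01 ± 0.33, or 4.03-fold, the 5th highest difference of 284 genes.

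NR1D1 followed a less even course. Its log2 level in NEC was −4.20, −3.62 and −3.93. In CA it was −4.62, −4.41 and −3.996, and in LD −5.49, −4.36 and −4.92. LD thus held the lowest sample of all, but LD replicate 2 lay within the CA range. In MD the values were −4.41, −4.44 and −4.01, all inside the range of CA. In HD they were −3.75, −3.36 and −2.49. The HD samples lay above all CA, LD and MD samples, but HD replicate 1 was lower than NEC replicate 2. HD did not overlap CA on the higher side in 44.9% of the 274 genes, and did not overlap MD on the higher side in 19.3%, so this arrangement was common on the panel.

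The group means of NR1D1 were −4.92 ± 0.56 in LD, −4.34 ± 0.32 in CA, −4.28 ± 0.24 in MD, −3.92 ± 0.29 in NEC and −3.20 ± 0.65 in HD (SD, n = 3). In this order CA and MD differed by less than their SDs, and the samples of every pair of neighbouring groups overlapped. The mean CT was 29.2 in CA and 28.4 in HD. NR1D1 was higher in HD than in CA by 1.14 ± 0.33 (SE, n = 3), or 2.20-fold, which ranked 42nd of 282 genes. It differed from CA by 0.06 ± 0.33 in MD, by −0.58 ± 0.33 in LD and by 0.42 ± 0.33 in NEC. The NEC value ranked 16th from the top of 282 genes, in a comparison in which 1.06% of genes passed the test in either direction. From MD to HD the gene was higher by 1.08 ± 0.33, or 2.12-fold, the 19th highest of 284.

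Both genes varied more between replicates than most of the panel. The SD within groups, pooled over the 5 groups, was 0.45 for BHLHE41 and 0.44 for NR1D1, against 0.20 for the median gene, and these ranked 18th and 21st of 274. HD replicate 3 had the highest level of both genes. Of the 53 genes that were measured everywhere and were higher in HD by at least 1, BHLHE41 and NR1D1 included, it was the highest HD sample in 33. Without HD replicate 3 the difference from CA was 1.87 for BHLHE41 and 0.78 for NR1D1. The lowest HD sample was replicate 2 for BHLHE41 and replicate 1 for NR1D1, so the order of the other HD samples differed between the genes.

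The genes did not move in parallel over the samples. When each was taken relative to its CA mean, BHLHE41 exceeded NR1D1 by 1.02 ± 0.38 in HD and by 0.09 ± 0.03 in MD, with 3 nearly equal MD samples (SD, n = 3). In LD it exceeded NR1D1 by 0.69 ± 0.91, a spread that came from 1.73 in LD replicate 1 against 0.32 and 0.03 in the others. In NEC it was lower than NR1D1, at −0.67 ± 0.54. The CA samples themselves differed on this measure with an SD of 0.62, from −0.45 in replicate 2 to 0.70 in replicate 1.

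The concentration course was uneven for both genes. For BHLHE41 the slope was 0.07 log2 units per 10 ppm from CA to LD, 0.015 from LD to MD and 0.49 from MD to HD. For NR1D1 it was −0.39, 0.24 and 0.27 over the same steps, which spanned 14.9, 26.2 and 40.6 ppm. In these group means the slopes from LD to MD and from MD to HD were alike for NR1D1, with a dip at LD. For BHLHE41 almost the whole difference of these group means lay in the last step. With the plate as a term in the model, BHLHE41 differed by 0.67 ± 0.51 from LD to MD and by 1.90 ± 0.51 from MD to HD (SE). NR1D1 differed with that term by 0.24 ± 0.52 from LD to MD and by 1.03 ± 0.52 from MD to HD (SE). Its dip at LD against CA was −0.30 with that term, and also −0.30 without LD replicate 1. Since no concentration between 41.1 and 81.7 ppm was measured, the form of the curve in that interval is unknown.

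**Figure D2:**
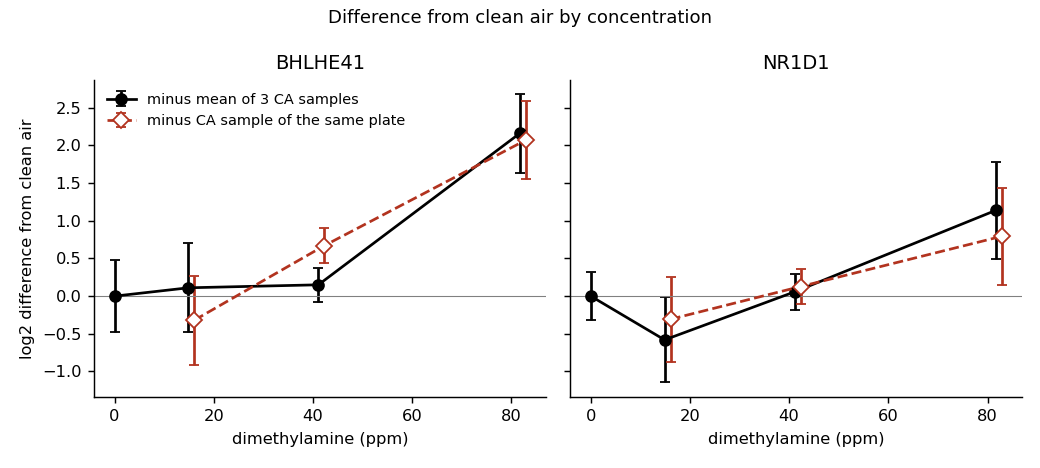
Log2 difference from clean air (y axis) against dimethylamine concentration in ppm (x axis) for BHLHE41 and NR1D1. Filled circles are group means minus the mean of the 3 CA samples, open diamonds (shifted slightly to the right) are group means minus the single CA sample of the same plate, and bars are the SD of the 3 samples in a group. BHLHE41 at MD is 0.15 by the former and 0.67 by the latter, while HD stays near 2 by both.

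Because each dose had a plate of its own, the values were also taken against the CA sample of the same plate. By this measure BHLHE41 differed by −0.32 in LD, 0.67 in MD and 2.07 in HD, and NR1D1 by −0.31, 0.13 and 0.79. The CA sample on plate 5, against which MD was set, had the lowest BHLHE41 level of the 3, −4.50. Against the NEC sample of the same plate, BHLHE41 differed by 0.02 in LD, 0.37 in MD and 2.76 in HD. NR1D1 differed from it by −0.72 in LD, −0.67 in MD and 0.73 in HD. Each of these references is a single sample. With the plate as a term in the model, HD exceeded CA by 2.30 ± 0.39 for BHLHE41 and by 0.97 ± 0.40 for NR1D1 (SE).

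The share of the CA to HD difference that lay between MD and HD was 93.0% for BHLHE41 and 95.1% for NR1D1. The NR1D1 share is a net figure, since its steps of −0.58 from CA to LD and 0.64 from LD to MD nearly cancelled. For BHLHE41 these steps were 0.11 and 0.04. There were 107 genes whose HD and CA means differed by at least 1, and the median share over them was 39.2%. It was 43.6% for the 57 that were higher in HD and 36.1% for the 50 that were lower. Only EGR2, an immediate-early zinc finger factor with a share of 102% and 14 measured samples, stood above both repressors. Next came SNAPC1, a subunit of the complex that starts snRNA transcription, with 92.2%. Then followed CFAP53, a cilium protein gene measured in 2 HD samples, with 86.1%, and PLA2G4C, a cytosolic phospholipase, with 82.4%. At the other end of the range were C4BPA, a complement regulator (7.89%), EMP3 (7.80%), CD79A (−2.96%), the laminin chain gene LAMA3 (−3.35%) and the adrenoceptor gene ADRA2A (−15.1%), whose differences lay before MD. With each dose set against the CA sample of its own plate the share of BHLHE41 was 67.6% and that of NR1D1 84.0%. Since both genes were chosen for a rise lying mainly in this step, their high shares restate that choice.

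**Figure D3:**
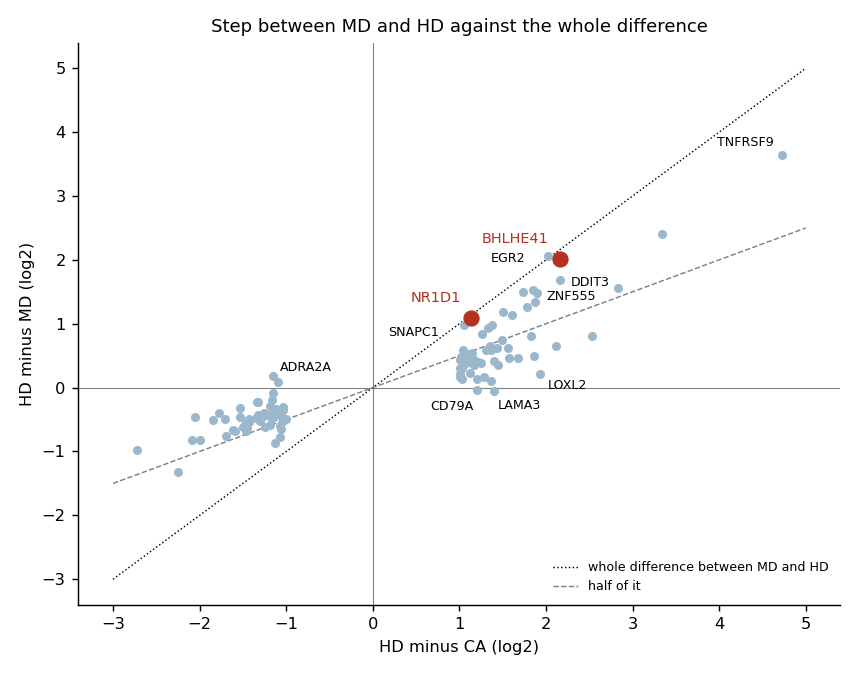
HD minus MD against HD minus CA, both as log2 differences of group means, for the 107 genes whose HD and CA means differed by at least 1. Each point is a gene, the dotted line marks genes whose whole difference lies between MD and HD, and the dashed line an even split. BHLHE41 (2.16 and 2.01) and NR1D1 (1.14 and 1.08), in red, lie close to the dotted line.

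No gene was among the 6 closest in course to both repressors over the 15 samples. Likeness was measured as the root mean square difference of the log2 values, each relative to its CA mean, over the 273 other genes measured in all samples. All of these samples share the same plates and normalisation genes. For BHLHE41 the nearest were PLA2G4C (0.41), the zinc finger gene ZNF555 (0.42), DDIT3 (0.48), PPP1R15A (0.48), ARL14 (0.50) and the receptor tyrosine kinase gene AXL (0.51), against a median of 1.02. DDIT3 encodes CHOP, a factor of the integrated stress response, and PPP1R15A encodes GADD34, the phosphatase subunit that ends that response. Their HD means were 2.17 and 1.61 above CA, and 0.48 above CA in MD for both. Relative to the mean of all CA samples, none of the 6 had an MD mean as near to CA as BHLHE41 (0.15). Against the CA sample of its own plate, however, BHLHE41 was at 0.67 in MD, and the 6 genes were not compared in that way. The MD samples of DDIT3 were uneven, at 0.16, 0.21 and 1.09 above the CA mean.

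For NR1D1 the nearest were the small MAF factor gene MAFF (0.40), SNAPC1 (0.41), the ceramide synthase gene CERS1 (0.43), BIRC3, which encodes an inhibitor of apoptosis (0.49), ZNF57 (0.49) and BEX2 (0.50), against a median of 0.75. SNAPC1 was 0.08 above CA in MD and 1.05 in HD, next to 0.06 and 1.14 for NR1D1. None of the 6 fell as far below CA in LD as NR1D1 did, the lowest being SNAPC1 at −0.20. The distance between BHLHE41 and NR1D1 was 0.78, so that NR1D1 was 65th in likeness to BHLHE41 and BHLHE41 148th in likeness to NR1D1.

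**Figure D4:**
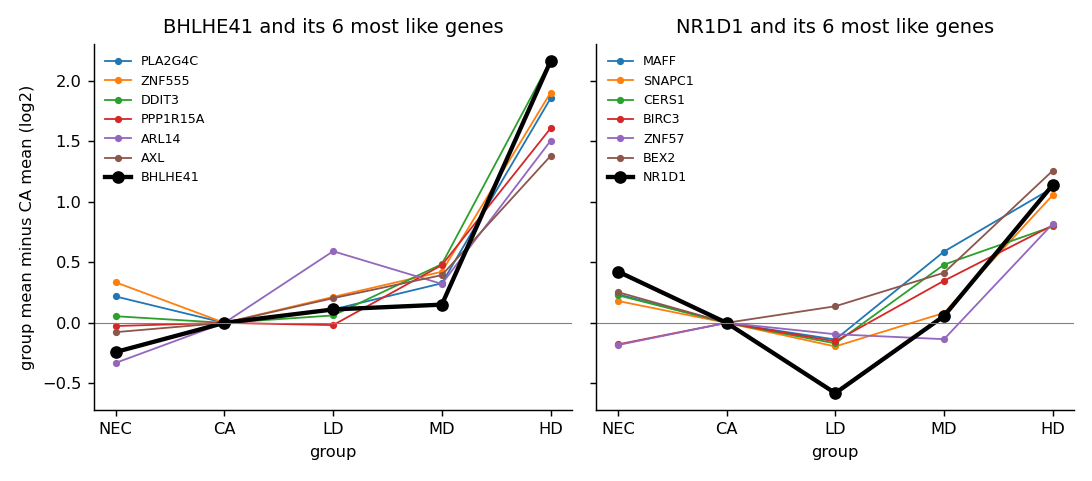
Group mean minus CA mean on the log2 scale (y axis) in the 5 groups (x axis) for BHLHE41 (left, black) and NR1D1 (right, black) with the 6 genes whose values over 15 samples were closest to each. BHLHE41 is at 0.15 in MD and 2.16 in HD, and NR1D1 at −0.58 in LD, 0.06 in MD and 1.14 in HD.

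The rest of the clock was hardly represented. Of a list of 42 core clock and clock output genes, the panel held BHLHE41 and NR1D1 alone, so the activators, the period and cryptochrome genes and the D-box factors were not measured here. NR1D1 was also the single member of 53 nuclear receptor and corepressor genes. Many genes of the panel had been picked by the study because they changed in other measurements of the same RNA, so the shares below are not those of a transcriptome. In HD against CA, 76.2% of the 282 genes tested passed the threshold (limma, Benjamini-Hochberg adjusted p under 0.05), with 44.3% of the tested genes higher and 31.9% lower. In MD against CA 62.1% passed, 36.2% higher and 25.9% lower, and in LD against CA 11.7%, 4.26% higher and 7.45% lower. Between MD and HD 20.4% of 284 genes passed, 12.3% of them higher in HD as a share of those tested.

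Of 71 E-box binding and related helix-loop-helix genes, HES1 was the only other one on the panel. HES1 is a repressor downstream of Notch. Relative to the CA mean it lay at −1.16, −1.48 and −1.11 in the HD samples, at −0.51, −0.74 and −0.66 in MD and at −0.91, −0.93 and −0.99 in LD, while CA ranged from −0.57 to 0.40. LD and HD samples were all below CA. Of the 274 genes measured in every sample, 32.1% had HD wholly below CA and 19.3% had LD wholly below CA. HES1 fell by 1.25 ± 0.22 in HD (SE, limma adjusted p = 0.000244), and also in LD (−0.94 ± 0.22, adjusted p = 0.0376) and MD (−0.63 ± 0.22, adjusted p = 0.0272). The LD call was lost with the plate as a term (adjusted p = 0.0842) and with GPN1 alone as normaliser (adjusted p = 0.0838). It was also lost without any 1 LD replicate or CA replicate 2 or 3 (adjusted p from 0.0591 to 0.124). In MD the call did not survive the removal of replicate 2 or 3 of either MD or CA (adjusted p from 0.0653 to 0.122). With the panel median as normaliser the MD call was lost too (adjusted p = 0.0635).

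From a list of 42 genes drawn up as targets of REV-ERBα or DEC2, 3 were measured. Whether these are targets in A549 cells was not tested. INSIG1, which encodes a brake on sterol synthesis, rose by 0.83 ± 0.14 in HD (limma adjusted p = 0.000138) and by 0.72 ± 0.14 in MD (adjusted p = 0.00107). Its step between MD and HD was within the error (0.11 ± 0.14, adjusted p = 0.581). CDH1, which joins epithelial cells, fell by 0.87 ± 0.11 in HD (adjusted p = 2.82e-05) and by 0.60 ± 0.11 in MD (adjusted p = 0.00102), and its step between these doses, −0.26 ± 0.11, missed the threshold (adjusted p = 0.109). CXCL5, a neutrophil chemokine gene that REV-ERBα represses in mouse airway, was at −0.01 ± 0.15 in HD (adjusted p = 0.940). The CXCL5 samples of HD lay at 0.10, 0.02 and −0.15 and those of CA at −0.16, 0.11 and 0.05, with complete overlap. The INSIG1 value in LD (0.45, adjusted p = 0.0495) lost its call in all 6 fits without a replicate.

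Stress-induced transcription factors had the highest median HD difference of the lists. Of 50 listed, 5 were on the panel, and all 5 rose in HD, where 44.3% of all genes tested did, with a median of 1.35 against 0.14 for all genes. In MD, where 36.2% of all genes rose, 3 of the 5 did (KLF6, NFKB2 and MAFF), and in LD none passed the test. DDIT3 lay at 2.30, 1.94 and 2.26 in HD, at 0.16, 0.21 and 1.09 in MD, and between −0.10 and 0.13 in CA. It rose by 2.17 ± 0.24 in HD (limma adjusted p = 8.25e-06), and by 1.68 ± 0.24 between MD and HD (adjusted p = 0.000806). EGR2 lay at 2.19, 1.44 and 2.44 in HD and at 0.26, −0.31 and −0.05 in MD, but its CA samples were spread from −1.42 to 0.74. It rose between MD and HD by 2.06 ± 0.55 (adjusted p = 0.0227), a call that did not survive the removal of HD replicate 1, HD replicate 3, MD replicate 1 or MD replicate 2 (adjusted p from 0.0501 to 0.0864). The Krüppel-like factor KLF6 (1.30 ± 0.26), the NF-κB subunit NFKB2 (1.35 ± 0.25) and MAFF (1.11 ± 0.20) rose in HD against CA with adjusted p between 0.000272 and 0.000613, but their steps from MD to HD, 0.58, 0.65 and 0.53, did not pass the test (adjusted p from 0.0777 to 0.125). The MD calls of these 3 genes were lost with the plate as a term (adjusted p from 0.148 to 0.309) and with GPN1 alone as normaliser (0.0567 to 0.0586). That of MAFF was also lost without normalisation genes (adjusted p = 0.0603). All 3 failed when either MD replicate 3 or CA replicate 1 was removed (adjusted p from 0.0812 to 0.13). KLF6 and NFKB2 also failed on removal of CA replicate 3 and of a further MD replicate (adjusted p from 0.0533 to 0.0755).

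BHLHE41 is known as a hypoxia-inducible gene, and 9 of 45 genes of a hypoxia and glycolysis list were measured. In HD 6 of the 9 rose and none fell, with a median of 0.55, beside 44.3% higher and a median of 0.14 for all genes. In MD 7 of the 9 rose, with a median of 0.47, beside 36.2% and a median of 0.17 for all genes. The MD call of ALDOA was lost with the plate as a term (adjusted p = 0.157), with GPN1 alone (0.122) and on removal of any 1 MD or CA replicate (0.0588 to 0.152). That of PFKFB4 was lost on removal of MD replicate 1 or 3 or CA replicate 2 (adjusted p from 0.0629 to 0.126). Without normalisation genes the MD calls of ALDOA, PFKFB4, LDHA and ERO1A were lost (adjusted p from 0.0889 to 0.239). LOXL2, a lysyl oxidase that crosslinks collagen, was the largest, at 1.80, 1.93 and 2.08 in HD and 1.63, 1.51 and 2.03 in MD, so the ranges of these groups overlapped. It rose by 1.93 ± 0.20 in HD (limma adjusted p = 6.16e-06) and by 1.72 ± 0.20 in MD (adjusted p = 6.93e-05). The aldolase gene ALDOC (0.86), the phosphofructokinases PFKFB4 (0.71) and PFKP (0.55) and the oxidoreductase ERO1A (0.49) also rose in HD, with LDHA (0.26), PGK1 (0.23) and ALDOA (0.07) not past the threshold. The 5 calls other than LOXL2, ARRDC4 included, were lost when CTs were used without normalisation genes (adjusted p from 0.0604 to 0.477).

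In HD against MD, 12.3% of the 284 genes tested were called higher. Of the 9 genes of the hypoxia and glycolysis list, 1 passed, ARRDC4, an arrestin-domain protein gene induced by glucose. It lay at 0.62, 0.47 and 1.58 in HD and at −0.28, −0.38 and −0.42 in MD. It rose between MD and HD by 1.25 ± 0.25 (limma adjusted p = 0.00454). The call was lost with the plate as a term (1.11, adjusted p = 0.133) and without normalisation genes (0.93, adjusted p = 0.0567). Haem is the ligand of NR1D1, and of 25 haem handling genes the haem carrier HPX (−0.16 ± 0.51 in HD, adjusted p = 0.784) and the ferritin light chain FTL (−0.03 ± 0.10, adjusted p = 0.771) were measured, neither of which passed the test at any dose.

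**Figure D5:**
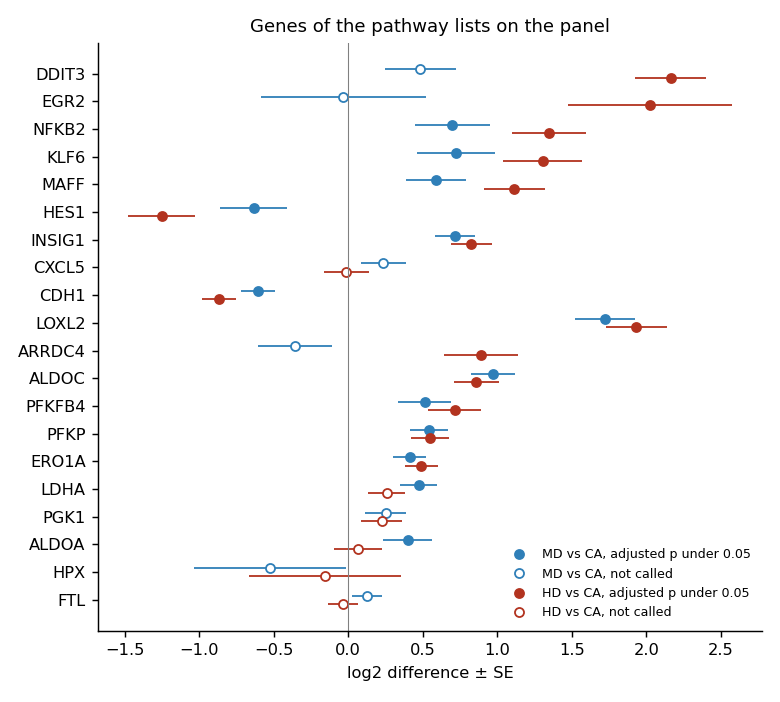
Log2 difference ± SE (x axis) from CA in MD (blue) and HD (red) for the 20 other genes of the pathway lists that were on the panel (y axis, n = 3 per group). Filled points passed the limma test at adjusted p under 0.05. DDIT3 and EGR2 at the top are near CA in MD (0.48 and −0.03) and high in HD (2.17 and 2.03), whereas LOXL2 is at 1.72 and 1.93.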

How the data were processed

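Per the deposited files, the authors ran customised PCR arrays on total RNA and exported 1 threshold cycle (CT) per well, with nd where no product was found. The authors' normalised matrix holds ΔCT values on a log2 scale, CT minus the mean of GPN1 and TMEM184C, and was linked to the CTs within 8.6e-09 cycles. Its sign was turned. The authors set 10 wells above 35 cycles to 35, which was kept, and filled 25 nd wells, which were treated as missing. A deposited table of the authors' fold changes was not used. Genes with at least 2 measured samples in both groups were fitted with limma 3.58.1 in R 4.3.3 (lmFit, eBayes, 1 mean per group over 15 samples, two-sided, Benjamini-Hochberg adjustment). SEs come from this fit. The samples of each dose shared 1 plate, so their spread holds no difference between plates, whereas the CA and NEC samples came from 3 plates. The fit pools these spreads, so its SEs and p-values for the doses do not fully cover differences between plates. BHLHE41 and NR1D1 and the 7 gene lists were chosen with earlier results of these data known, so no p-value is given for the former, and list counts stand beside those of all genes. Further genes named are all measured list members, the 6 closest in course to each repressor, and the 6 highest and 6 lowest shares between MD and HD, of which 1 is not reported here. An array has no read depth, so the 3 replicates limit the precision. Alternatives changed the normalisation genes, the nd wells, the ceiling, the control, and plate or replicate blocks, and left out each replicate. Plots used matplotlib 3.10.9 (Python 3.11.15).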

Additional observations from a re-analysis of the deposited data

How the results depend on the processing

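For BHLHE41 and NR1D1, chosen for this rise, the difference of HD from CA kept its direction under every normalisation, control and block tried. Leaving out a replicate could not turn the direction, since every HD sample lay above every CA sample for both genes. Left-out replicates gave 1.87 to 2.38 for BHLHE41 and 0.78 to 1.41 for NR1D1, and shares between MD and HD of 84.6% to 106% and 82.6% to 108%. The normalisation genes came 0.312 cycles later in HD than in CA, so without them every HD difference was lower by that amount, with 1.85 for BHLHE41 and 0.83 for NR1D1. With the panel median as normaliser they were 2.34 and 1.32. The BHLHE41 difference of MD from LD, 0.04, became 0.67 ± 0.51 with the plate as a block, and its share between MD and HD became 67.6% against CA of the same plate, where the plate 5 sample had the lowest CA level.

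Counts of genes called depended more on the setting. With GPN1 alone, 2 genes were called in LD against CA, 34 in HD against MD and 52 in MD against LD, where 33, 58 and 96 had been called. Without normalisation genes the counts were 114 in MD, 11 in LD and 1 in NEC against CA (175, 33 and 3 before) and 22 in MD against LD. With the plate as a block they were 17 in LD and 9 in NEC against CA, 13 in HD against MD and 1 in MD against LD. With CA and NEC as a joint control 81 were called in LD. The split into higher and lower calls moved from 125 and 90 to 73 and 100 in HD against CA, and from 35 and 23 to 12 and 37 in HD against MD, without normalisation genes. With the panel median it moved from 102 and 73 to 145 and 47 in MD, and from 12 and 21 to 31 and 11 in LD. Leaving out a replicate gave 2 (without LD replicate 3) to 26 calls in LD, 53 (without MD replicate 3) to 96 in MD against LD, 25 (without MD replicate 1) to 68 in HD against MD and 1 (without NEC replicate 1) to 2 in NEC. Over the list genes and their comparisons, fits without a replicate lost 69 calls, gained 9 and left 638 results on their side of the threshold. Under the other settings 55 were lost, 24 gained and 861 left.

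The labels number replicates alike in LD, MD and HD, and same-numbered samples had r from −0.148 to 0.255 across genes in their deviations. Samples of unlike number were not compared, and each dose had its own plate. Whether same-numbered samples share more than a number is therefore not settled. With the replicate block, 51 genes were called in HD against MD and 88 in MD against LD. CA and NEC samples of the same plate deviated together (r from 0.387 to 0.717), which is the basis of the plate block.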
